A study of Mus musculus with 6 samples.

Results

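Sarcomere and Z-disc genes encode the contractile unit of striated muscle and the structure that anchors it. The 39 genes described here were chosen by name for their place in that unit and not by a rule on their values. The choice was made with earlier results of these data known. Of the 39, 15 belong to the thick filament and its assembly, 14 to the thin filament and 10 to the Z-disc. They are 39 of the 25701 genes in the series, where 38 of them had a row in the table used and Myoz2 was not analysed here.

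RNA-seq of polyA RNA was performed on cells at the CP (cardiac progenitor) stage of differentiation, derived from the mouse ESC line 46C, in which the Sox1 gene carries a green fluorescent protein reporter. There were 3 libraries of 46C-Ctrl, with the control genotype, and 3 labelled Zhx1-KO, in which the gene of the zinc finger and homeobox protein Zhx1 had been targeted in the ESCs by CRISPR/Cas9 with a guide at each end of the gene. The comparison asks which genes depend on Zhx1 at this stage. Both groups carry the reporter and, per the study's methods, ESCs were differentiated in medium with ascorbic acid, then with BMP4, Activin A and VEGF, and then with VEGF, FGF10 and bFGF. The sources used here do not give the number of knockout clones nor the day of harvest, and where libraries of a group share a line, p-values measure the spread between these libraries only.

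In a sarcomere, myosin heads on the thick filament pull on actin in the thin filament, and the troponin complex and tropomyosin, which lie along actin, make that pull depend on calcium. Titin spans from the Z-disc to the middle of the thick filament, and alpha-actinin crosslinks the actin ends at the Z-disc. Early heart muscle uses atrial, slow skeletal and skeletal forms of several of these proteins beside the cardiac ones, and many of the genes carry binding sequences for SRF (the CArG box), for MEF2 factors and for TEAD factors (M-CAT) near their start.

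The values are normalized counts, gene counts divided by a size factor for each library, and the library totals, counted in the step between possible values as a measure of depth, ran from 13769967 to 15940874. The Zhx1 transcript itself was measured at 460, 181 and 457 in 46C-Ctrl replicates 1, 2 and 3 and at 225, 325 and 308 in those labelled Zhx1-KO (log2 fold change -0.25, standard error 0.35, limma adjusted p = 0.579), a whole-gene value that does not settle the labels, so below "higher" and "lower" mean only higher or lower where a library bears the Zhx1-KO label. 46C-Ctrl replicate 2 stood apart, with 2.77% of its signal from mitochondrial genes against 1.72% to 1.87% in the other libraries. All 7 progenitor markers examined were present in 46C-Ctrl, from 62.2 ± 4.78 (mean ± SD, n = 3) for Tbx5 to 5774 ± 329 for Hand1. Among those labelled Zhx1-KO the level of Tbx5 was 1.93 ± 1.02, and Hand1, Hand2, Gata4, Mef2c, Nkx2-5 and Tbx5 were lower, while Isl1 did not pass the test (adjusted p = 0.311 from limma). In bulk RNA, fewer cells of a type and less RNA per cell cannot be told apart.

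The sarcomere genes moved in both directions. Of 30 that had a mean normalized count of at least 10 and were tested, 11 passed at an adjusted p under 0.05 as higher and 12 as lower, and 7 did not pass. Over all 15372 genes tested, 25.6% were higher and 26.4% were lower. The median log2 fold change was -0.50 over the 30 genes and 0.01 over all genes tested. By compartment, 6 of 12 thick filament genes were higher and 3 were lower, 3 of 11 thin filament genes were higher and 7 were lower, and 2 of 7 Z-disc genes moved in each direction. The medians were 0.34, -0.81 and -0.70 in that order. The groups did not overlap for 12 genes whose libraries labelled Zhx1-KO were all above 46C-Ctrl and for 15 whose libraries were all below, against 60.8% of all tested genes without overlap in either direction. Myl2 and Tnni3 passed the filter on low values only through the libraries labelled Zhx1-KO, with 46C-Ctrl means of 6.49 and 9.81, so their place among those higher was set in part by the filter. Since all these counts rest only on genes that passed it, the 8 that did not (Myh3, Mybpc1, Myom2, Tnni2, Tnnc2, Lmod2, Tcap and Myot) are given by their values alone.

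**Figure D1:**
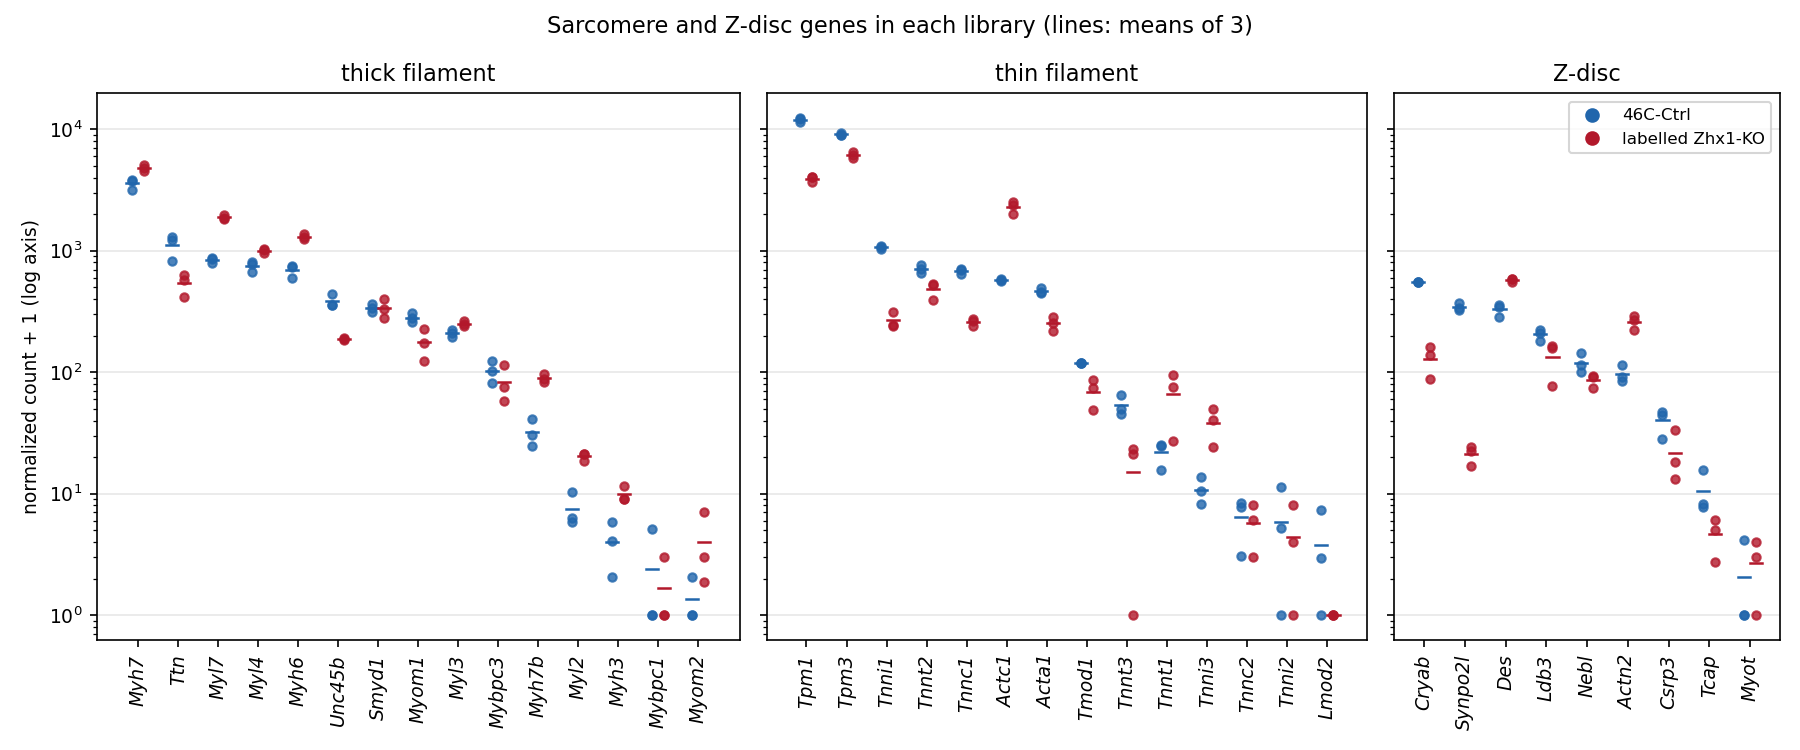
Normalized count + 1 (log axis) of the 38 measured genes in each of the 6 libraries, with 46C-Ctrl in blue, the libraries labelled Zhx1-KO in red and a short line at each mean of 3. The points of Actc1 and Myl7 are above in red, those of Tpm1, Tnni1, Cryab and Synpo2l are below, and Smyd1 overlaps.

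The sequences upstream of a few genes are shown because SRF and MEF2 sites are the elements by which muscle genes of this kind are known to be regulated, and because Actc1 and Myl7 were higher while Acta1 and Synpo2l were lower. Each line gives the 250 bases before the start of the gene, 5′ to 3′ on the strand of the gene, from RefSeq on GRCm38.p6, for Actc1 without the last 12 bases, which GENCODE places in an exon. GENCODE starts Actc1 further upstream, at 114053548, so the stretch shown for Actc1 lies before the RefSeq start but within the gene in GENCODE. Capitals mark the CArG box in the first 3 and the MEF2 site in the last.
Actc1 (chr2:114052888-114053125, minus strand): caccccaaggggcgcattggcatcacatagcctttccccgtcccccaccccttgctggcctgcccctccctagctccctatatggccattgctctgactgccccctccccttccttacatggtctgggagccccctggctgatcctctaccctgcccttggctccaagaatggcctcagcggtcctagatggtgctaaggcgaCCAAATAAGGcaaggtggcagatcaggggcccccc
Acta1 (chr8:123894776-123895025, minus strand): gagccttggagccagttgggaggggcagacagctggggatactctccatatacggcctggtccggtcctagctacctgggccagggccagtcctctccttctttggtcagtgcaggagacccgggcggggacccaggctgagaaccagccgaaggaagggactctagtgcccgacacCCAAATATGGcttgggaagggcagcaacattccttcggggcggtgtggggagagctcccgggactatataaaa
Myl7 (chr11:5898783-5899032, minus strand): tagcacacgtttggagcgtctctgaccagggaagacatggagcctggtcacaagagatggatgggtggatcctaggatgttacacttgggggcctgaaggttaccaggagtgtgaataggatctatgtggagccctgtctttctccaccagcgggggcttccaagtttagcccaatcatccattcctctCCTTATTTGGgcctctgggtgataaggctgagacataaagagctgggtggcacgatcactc
Synpo2l (chr14:20668355-20668604, minus strand): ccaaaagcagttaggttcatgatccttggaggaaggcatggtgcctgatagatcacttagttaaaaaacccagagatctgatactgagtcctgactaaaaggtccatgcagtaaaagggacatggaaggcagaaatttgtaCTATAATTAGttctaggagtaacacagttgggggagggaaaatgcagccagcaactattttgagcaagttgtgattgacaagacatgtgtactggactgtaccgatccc

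The CArG box of Actc1 began 47 bases before the RefSeq start, that of Acta1 73 bases and that of Myl7 61 bases, and the MEF2 site of Synpo2l began 109 bases before it. None of the stretches shown overlaps an exon in GENCODE. In windows from 250 bases before the start to 50 after it, read on both strands, a CArG box was present in 535 of 32851 promoters of all genes (1.63%) and in 8 of 44 promoters of the 33 sarcomere genes that had a window. Of the 7 genes with the box, Actc1 and Myl7 were higher, Acta1 and Myom1 were lower, and Ldb3, Myl3 and Nebl did not pass the test, so genes with the box were found in all 3 outcomes. A MEF2 site was present in 3.19% of all windows and in those of Mybpc3, Myoz2, Synpo2l and Ttn. The M-CAT sequence CATTCC was present in 14.7% of all windows and in 11 of the 44, among them those of Myh6 and Myh7, which were higher, and Tnnt2, Tnnc1 and Tpm1, which were lower. A match describes the letters of a window and not a site in use.

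Among thick filament genes, Myh6, Myh7, Myh7b, Myl2, Myl4 and Myl7, all myosin heavy or light chains, were higher, and the light chain Myl3 did not pass. Myh6, the alpha cardiac heavy chain on chromosome 14 (54941921 to 54966927, minus strand, GRCm38), showed 741, 595 and 733 normalized counts in 46C-Ctrl and 1291, 1367 and 1247 in those labelled Zhx1-KO. Each library of the latter was above each of the former, and the rise was 1.89-fold (log2 fold change 0.92, standard error 0.09, limma adjusted p = 1.4e-04). Myh7, the beta heavy chain beside it on the chromosome (54970684 to 54994626), had counts of 3835, 3163 and 3733 in 46C-Ctrl and 4510, 5113 and 4803 in those labelled Zhx1-KO. Its rise was smaller, 1.35-fold (log2 fold change 0.43, standard error 0.08, adjusted p = 0.00347), again without overlap. The 2 heavy chain genes are close in sequence, so reads may have been divided between them uncertainly, and no source used here gives how the counting treated such reads. Myh7b, another cardiac and slow muscle heavy chain, rose from 31.0 ± 8.28 to 88.2 ± 6.29 (SD, n = 3; adjusted p = 0.00134).

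The regulatory light chain of the atrium, Myl7 (chromosome 11, 5896637 to 5898782, minus strand), had counts of 877, 787 and 859 in 46C-Ctrl. In the libraries labelled Zhx1-KO its counts were 1844, 1982 and 1832, with a rise of 2.24-fold (log2 fold change 1.17, standard error 0.06, adjusted p = 7.2e-06). Its ventricular counterpart Myl2 was near the lower limit of what was tested, at 4.88, 9.32 and 5.27 in 46C-Ctrl and 20.2, 20.2 and 17.6 in those labelled Zhx1-KO. Myl2 rose (log2 fold change 1.49, standard error 0.40, adjusted p = 0.0166), but did not pass without Zhx1-KO replicate 1 (adjusted p = 0.0529) or without Zhx1-KO replicate 2 (adjusted p = 0.0534). With a 46C-Ctrl mean of 6.49, Myl2 was tested only through the libraries labelled Zhx1-KO, so its call was set in part by the filter. The atrial essential light chain Myl4 rose from 747 ± 71.7 to 995 ± 38.9 (log2 fold change 0.42, adjusted p = 0.00394), and the ventricular Myl3, at 210 ± 14.4 and 251 ± 13.7, did not pass (adjusted p = 0.0703). The groups did not overlap for any of these 4 light chains.

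Chromosome 11, which holds Myl7, Myl4, Unc45b, Myh3 and Tcap, was higher as a whole. Of its 1185 tested genes, 675 were higher and 114 were lower, and their median log2 fold change was 0.42, where every other autosome had a median between -0.13 and 0.02. With the median of its chromosome taken off, Myl4 was no longer higher (log2 fold change -0.01, limma adjusted p = 0.951), Myl7 remained higher at 0.74 (adjusted p = 7.5e-05) and Unc45b remained lower at -1.46 (adjusted p = 4.2e-05). The part of chromosome 11 in the value of Myl4 was not tested beyond this.

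Of the other 5 tested thick filament genes, which hold or assemble the filament, 3 were lower and 2 did not pass. Ttn encodes titin, the spring and ruler of the sarcomere, and had counts of 1217, 1300 and 819 in 46C-Ctrl and 626, 570 and 418 in those labelled Zhx1-KO. All 3 of the latter were below all 3 of the former, and Ttn fell by 1.04 on the log2 scale (standard error 0.20, adjusted p = 0.00379 from limma). Unc45b, a chaperone that folds myosin heads, had counts of 359, 356 and 440 against 189, 187 and 181, and also fell by 1.04 (standard error 0.11, adjusted p = 1.7e-04). Myom1, the M-line protein that ties thick filaments together, had counts of 256, 278 and 307 against 122, 228 and 174 and fell by 0.72 (adjusted p = 0.0238). That call was lost without 46C-Ctrl replicate 2 (adjusted p = 0.0517), 46C-Ctrl replicate 3 (0.0720) or Zhx1-KO replicate 3 (0.0555). Of the exonic bases of Myom1, 207 (1.98%) lie opposite Myl12a on the other strand, which fell from 3791 ± 264 to 2003 ± 123. The part of those shared bases in the count of Myom1 was not tested.

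Smyd1, a muscle methyltransferase and myosin partner that works with Unc45b, had counts of 310, 362 and 337 in 46C-Ctrl and 331, 278 and 400 in those labelled Zhx1-KO. These overlap throughout, and the log2 fold change of -0.01 had a 95% interval from -0.34 to 0.31. The myosin-binding protein Mybpc3 had means of 101 ± 20.8 and 81.6 ± 28.8 with overlap (adjusted p = 0.334). Myh3, the embryonic skeletal heavy chain, was below the filter and not tested, at 4.88, 3.11 and 1.05 against 8.06, 8.09 and 10.6. The skeletal genes Mybpc1 and Myom2 stayed under a normalized count of 10 in every library.

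**Figure D2:**
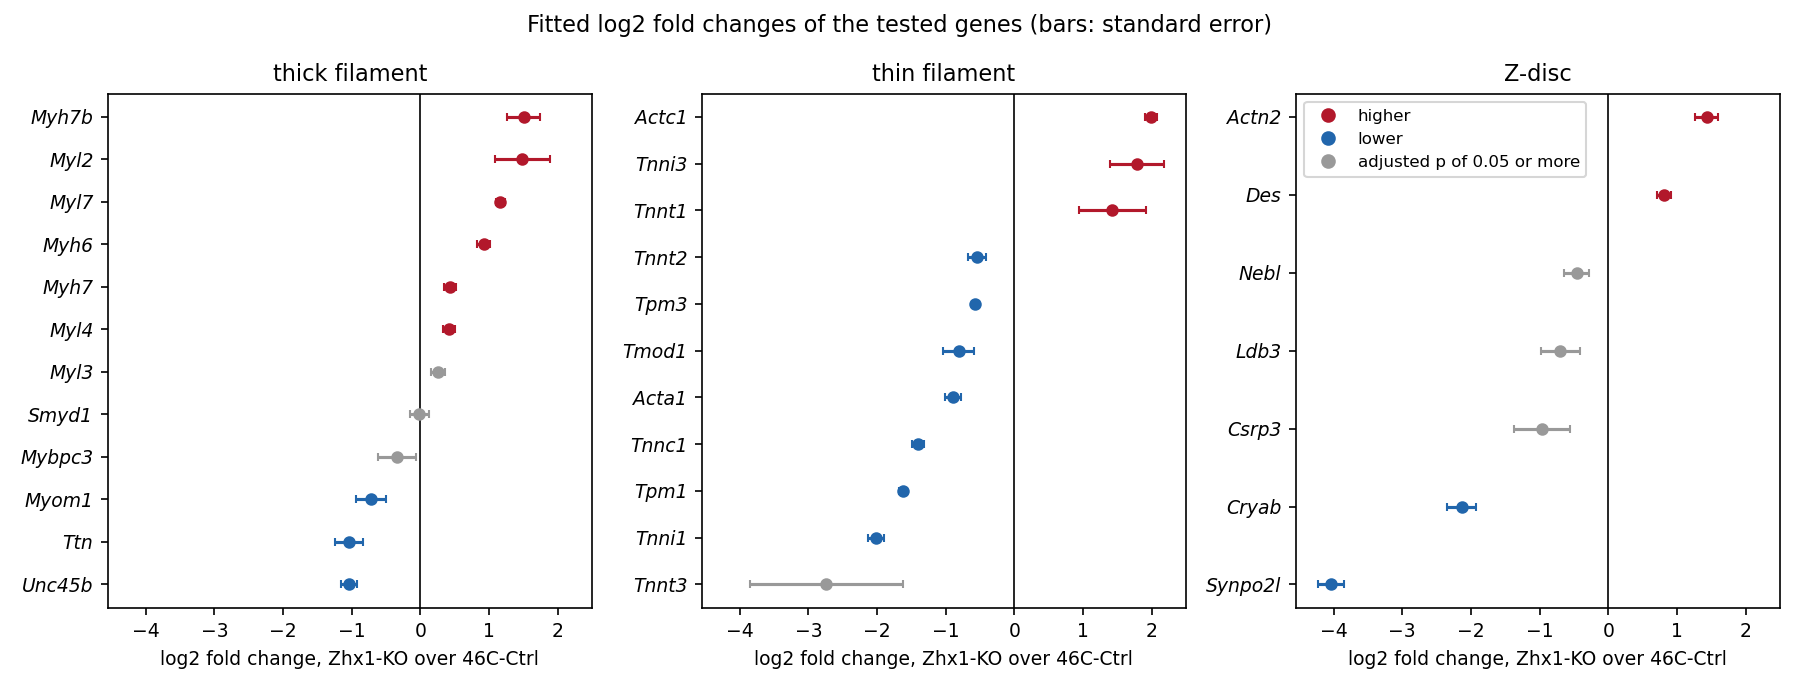
Log2 fold change (libraries labelled Zhx1-KO over 46C-Ctrl, on log2 of the normalized count + 1) of the 30 tested genes with standard errors, by compartment, in red where higher, blue where lower and grey where the adjusted p was 0.05 or more. Thick filament genes run from -1.04 to 1.51, thin filament genes from -2.74 to 2.0 and Z-disc genes from -4.04 to 1.43.

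In the thin filament, the cardiac actin rose, both tropomyosin genes fell, and of 6 tested troponin genes 3 fell, 2 rose and 1 did not pass. Actc1, the cardiac alpha-actin (chromosome 2, 114047282 to 114053548, minus strand), had counts of 577, 560 and 579 in 46C-Ctrl and 2385, 2499 and 2000 in those labelled Zhx1-KO. It rose 3.99-fold (log2 fold change 2.0, standard error 0.09, limma adjusted p = 2.4e-06). Acta1, the skeletal alpha-actin, went the other way, with counts of 455, 449 and 489 against 284, 253 and 217, and fell by 0.89 on the log2 scale (adjusted p = 4.2e-04). The coding sequences of the alpha-actins are nearly alike, and the division of reads among Actc1, Acta1 and the smooth muscle Acta2 is uncertain for the same reason as in the heavy chains. Acta2 itself fell from 7928 ± 68.1 to 2906 ± 135 (adjusted p = 7.9e-07).

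Tpm1, the main tropomyosin of striated muscle (chromosome 9, 67022590 to 67049406, minus strand), had counts of 12147, 11446 and 12284 in 46C-Ctrl and 4002, 4014 and 3646 in those labelled Zhx1-KO. It was 3.08-fold lower (log2 fold change -1.62, standard error 0.06, adjusted p = 9.0e-07 from limma), and no libraries overlapped. Tpm3, a tropomyosin of slow muscle that non-muscle cells also use, fell by 0.57 on the log2 scale, from 9054 ± 228 to 6111 ± 352 (adjusted p = 9.0e-05). Both genes also make non-muscle tropomyosins from other exons, and a gene count does not separate these forms.

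The troponin I genes moved in opposite directions. Tnni1, the slow skeletal form that the early heart uses (chromosome 1, 135779434 to 135810989, plus strand), had counts of 1037, 1091 and 1078 in 46C-Ctrl and 245, 314 and 237 in those labelled Zhx1-KO. It was 4.05-fold lower (log2 fold change -2.02, standard error 0.11, limma adjusted p = 7.7e-06). Tnni3, the form of the mature heart, had counts of 12.7, 7.25 and 9.49 against 23.2, 39.4 and 48.4, and rose (log2 fold change 1.78, standard error 0.39, adjusted p = 0.00646). With a 46C-Ctrl mean of 9.81, Tnni3 was tested only through the libraries labelled Zhx1-KO, so its call was set in part by the filter. Tnni3 shares 86 exonic bases on the same strand with Dnaaf3, which rose from 71.2 ± 7.58 to 215 ± 12.4, and the part of those shared bases in the count of Tnni3 was not tested.

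Tnnc1, the calcium-binding subunit of cardiac and slow muscle, had counts of 690, 712 and 640 in 46C-Ctrl and 262, 274 and 237 in those labelled Zhx1-KO, and fell by 1.40 on the log2 scale (standard error 0.09, adjusted p = 1.3e-05 from limma). Tnnt2, the cardiac subunit that binds tropomyosin, had counts of 762, 701 and 650 against 535, 525 and 394, and fell by 0.55 (standard error 0.13, adjusted p = 0.00856). Neither gene overlapped between the groups. Tnnt1, the slow skeletal form, had counts of 24.4, 23.8 and 14.8 against 26.2, 73.8 and 94.2, so that Zhx1-KO replicate 1 lay just above 46C-Ctrl. It passed the test (log2 fold change 1.43, adjusted p = 0.0387), and the call was lost without 46C-Ctrl replicate 1 (0.0628), 2 (0.0590) or 3 (0.107) or without Zhx1-KO replicate 2 (0.119) or 3 (0.130). With the replicate number as a block its adjusted p was 0.0596.

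Tnnt3, the fast skeletal troponin T, had counts of 43.9, 48.7 and 64.3 in 46C-Ctrl and 22.2, 20.2 and 0 in those labelled Zhx1-KO. The zero in Zhx1-KO replicate 3 widened its error (log2 fold change -2.74, standard error 1.12, limma adjusted p = 0.0741). Without that library it stood at -1.25 (adjusted p = 0.0138), and without Zhx1-KO replicate 1 at -3.51 (adjusted p = 0.0461). Tmod1, which caps the pointed end of actin, had counts of 117 in each 46C-Ctrl library against 72.6, 47.5 and 84.5, and fell by 0.81 (adjusted p = 0.0183). Of its exonic bases, 32.6% lie opposite Tstd2 on the other strand, whose level did not pass the test (adjusted p = 0.874). The fast skeletal Tnni2 and Tnnc2 were under 12 in every library, and Lmod2, an actin nucleator, was at 1.95, 0 and 6.33 in 46C-Ctrl and listed at 0 in all 3 libraries labelled Zhx1-KO.

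In the Z-disc, Synpo2l, an actin-binding protein of heart and skeletal muscle, had the lowest log2 fold change of the 30 genes. Its counts (chromosome 14, 20658946 to 20668354, minus strand) were 372, 321 and 335 in 46C-Ctrl and 23.2, 21.2 and 15.8 in those labelled Zhx1-KO. It was 16.5-fold lower (log2 fold change -4.04, standard error 0.19, limma adjusted p = 3.4e-06). Cryab, a small heat shock protein that protects desmin and titin (chromosome 9, 50751325 to 50756636, plus strand), had counts of 549, 554 and 548 against 138, 160 and 87.1, and was 4.40-fold lower (log2 fold change -2.14, standard error 0.21, adjusted p = 1.1e-04). Hspb2, whose exons lie opposite 17.0% of those of Cryab, was at 61.8 ± 11.9 and 48.7 ± 8.04 and did not pass.

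Actn2, the muscle alpha-actinin that crosslinks actin, moved the other way. Its counts were 114, 83.9 and 89.6 in 46C-Ctrl and 221, 287 and 270 in those labelled Zhx1-KO, a rise of 2.70-fold (log2 fold change 1.43, standard error 0.17, limma adjusted p = 2.7e-04). Des, desmin, the intermediate filament that links Z-discs, had counts of 343, 285 and 354 against 551, 580 and 589 and rose 1.76-fold (log2 fold change 0.81, standard error 0.10, adjusted p = 3.6e-04).

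The other 3 tested Z-disc genes had negative log2 fold changes that did not pass. Ldb3, a PDZ-LIM protein that binds alpha-actinin, had counts of 211, 181 and 221 against 164, 156 and 76.6 without overlap (log2 fold change -0.70, adjusted p = 0.0715), and passed without Zhx1-KO replicate 1 (adjusted p = 0.0452). Nebl, the cardiac relative of nebulin, had counts of 99.5, 142 and 113 against 72.6, 90 and 92.4, also without overlap (log2 fold change -0.46, adjusted p = 0.0728). Csrp3, the muscle LIM protein, had counts of 27.3, 43.5 and 46.4 against 12.1, 17.2 and 32.6, which overlapped (log2 fold change -0.97, adjusted p = 0.0844). Without Zhx1-KO replicate 3 it passed at -1.34 (adjusted p = 0.0277). Below the filter and not tested, Tcap, the titin cap, was at 6.83, 7.25 and 14.8 against 4.03, 5.06 and 1.76, and Myot, myotilin, was under 4 in every library.

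The ratio of paired isoform genes was taken within each library, where the scaling between libraries bears on it only through the 1 added to each count, which matters for low genes such as Myl2, Tnni3 and Tnnt1. Over 6 such pairs, chosen as the classic developmental or chamber-specific alternatives, the groups were separate for 4. Of all single genes tested, 60.8% also had groups without overlap, and that share was not computed for ratios. The log2 ratio of Acta1 to Actc1 was -0.30 ± 0.05 in 46C-Ctrl and -3.19 ± 0.12 in those labelled Zhx1-KO (SD, 3 libraries each), that of Tnni1 to Tnni3 was 6.66 ± 0.40 and 2.86 ± 0.55, that of Tnnt1 to Tnnt2 was -5.03 ± 0.29 and -3.06 ± 1.14, and that of Myh6 to Myh7 was -2.37 ± 0.03 and -1.88 ± 0.07. For each of these 4 the exact two-sided permutation p was 0.1, the lowest that 3 libraries against 3 allow, and 0.15 after adjustment over the 6 pairs, so no pair could pass the threshold. The genes for the pairs were among those tested above, and their ratios are another view of the same values. For the light chains the groups overlapped, with 6.86 ± 0.53 and 6.54 ± 0.09 for Myl7 to Myl2 and 1.83 ± 0.22 and 1.99 ± 0.08 for Myl4 to Myl3 (exact permutation p = 0.4 each).

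**Figure D3:**
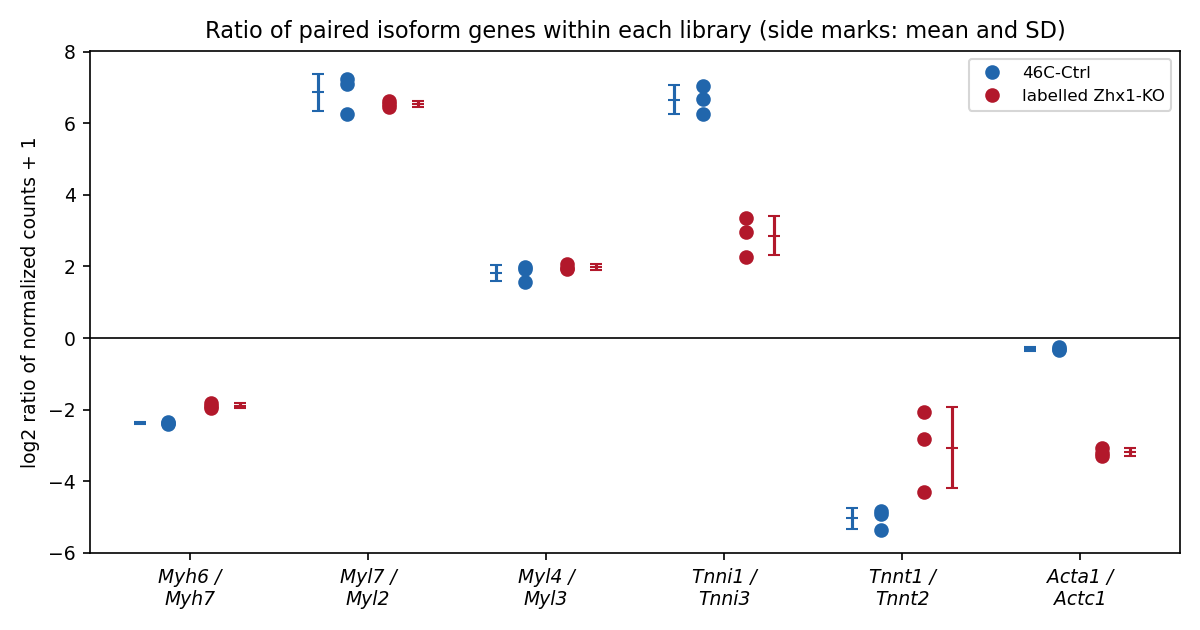
Log2 ratio of the normalized counts + 1 of each isoform pair in each library, with 46C-Ctrl in blue and the libraries labelled Zhx1-KO in red and the mean with SD beside each set. The groups are apart for Acta1 over Actc1 (difference -2.89) and Tnni1 over Tnni3 (difference -3.80) and overlap for both light chain pairs.

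Per kilobase of exon, a scale on which genes can be compared, tropomyosin led in 46C-Ctrl and the atrial light chain led in those labelled Zhx1-KO. The 46C-Ctrl means ran from 1844 normalized counts per kb for Tpm1 through 1488 for Tpm3, 1425 for Myl7, 654 for Tnnc1, 415 for Myh7, 372 for Cryab and 354 for Actc1. In the libraries labelled Zhx1-KO the means per kb were 3197 for Myl7, 1418 for Actc1, 1004 for Tpm3, 599 for Tpm1, 558 for Myh7 and 247 for Tnnc1. Ttn, with a mean count of 1112 in 46C-Ctrl, was at 9.52 per kb, since its exons are far longer than those of the others. The exon length is that of all annotated exons joined, so a gene with many alternative exons is set too low on this scale.

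**Figure D4:**
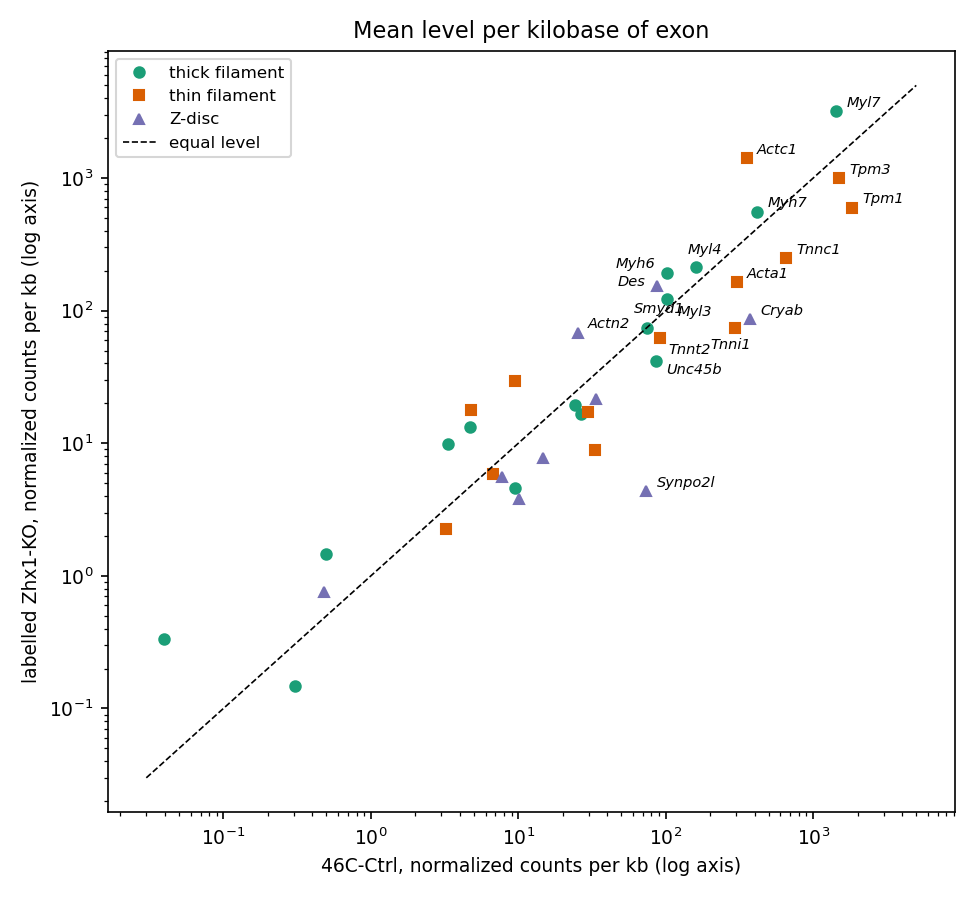
Mean normalized counts per kb of exon in 46C-Ctrl (x, log axis) and in those labelled Zhx1-KO (y, log axis), by compartment, with names where a mean was over 60. Lmod2 is left out because it was listed at 0; Myl7 and Actc1 lie above the line of equal level, and Tpm1, Tnni1, Cryab and Synpo2l lie below it.

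Other genes of the sarcomere and its surroundings, from a list of 49 more, were mostly lower. Of 27 tested, 15 were lower and 2 were higher, while 10 did not pass, with a median log2 fold change of -0.54. The counts of this list and of those below stand beside 25.6% higher and 26.4% lower over all genes tested. The Z-disc proteins Pdlim3 (662 ± 34.1 and 108 ± 3.07), Pdlim7 (1760 ± 134 and 588 ± 20.8) and Flnc, the muscle filamin (7838 ± 603 and 2679 ± 86.3), and the kinase-like Alpk3 (666 ± 85.8 and 90.5 ± 1.32) were lower. Non-muscle counterparts of the contractile proteins, such as Actb (35504 ± 711 and 18566 ± 1285), Myl6 and Vim, were also lower in 9 of 15 tested, and Tmod2, a relative of Tmod1, was higher (268 ± 32.5 and 716 ± 30.0).

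Regulators and markers of cell types that use these genes also moved. Of 18 cardiac regulators of sarcomere genes, 13 were lower and 2 were higher (median log2 fold change -0.75), and their summed level ran from 16616 to 18345 in 46C-Ctrl and from 5850 to 6344 in those labelled Zhx1-KO. Hand1, Tbx20, Gata4 and Gata6 were lower, Tbx20 from 1474 ± 47.9 to 427 ± 15. Hand1, at 5774 ± 329 and 198 ± 28.1, was the largest part of the sum in 46C-Ctrl. Hopx (78.8 ± 9.67 and 200 ± 17.7) and Mef2a (508 ± 21.7 and 611 ± 8.91) were higher, and Isl1, Irx4 and Mef2d did not pass. Tbx5 passed the filter only through 46C-Ctrl, so its place among those lower was set in part by the filter. Of 11 tested cardiomyocyte markers outside the sarcomere, 7 were lower and 1 was higher (median -0.68), with Cacna1c, a calcium channel, at 316 ± 30.1 and 56.6 ± 2.82, and Gja1, Atp2a2 and Popdc2 lower as well. The natriuretic peptide genes Nppa and Nppb, used as markers of working heart muscle, were below the filter and not tested. Nppa was at 3.72 ± 1.01 in 46C-Ctrl and 3.36 ± 3.53 in those labelled Zhx1-KO. Nppb was at 12.7, 16.6 and 14.8 in 46C-Ctrl and at 0, 1.01 and 0 in those labelled Zhx1-KO.

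Smooth and skeletal muscle share several of the sarcomere genes, among them Des, Actc1, Acta1 and Tpm1. Of 11 tested smooth muscle markers, 5 were lower and 2 were higher (median -0.24), and their sum ran from 17266 to 18503 in 46C-Ctrl and from 7077 to 7607 in those labelled Zhx1-KO. Tagln (6599 ± 358 and 1131 ± 87.0), Acta2 and Cnn1 were lower, and Mylk and Smtn (737 ± 112 and 1069 ± 110) were higher. Acta2 and Tagln made up most of the sum, and Myl9 did not pass (592 ± 15.5 and 587 ± 11.6). Myh11, which defines smooth muscle, was under 48 in every library. Of 6 tested skeletal muscle regulators and markers, 4 were higher and 0 were lower (median 1.58), among them Pax3 (4.80 ± 2.27 and 29.7 ± 13.1) and Eya1 (193 ± 61.6 and 382 ± 56.8), and the sum of the list ran from 1081 to 1129 and from 2681 to 2933. Pax3 passed the filter on low values only through the libraries labelled Zhx1-KO, so its place among those higher was set in part by the filter. Myod1, the defining regulator of skeletal muscle, was at 2.93, 3.11 and 3.16 in 46C-Ctrl and 14.1, 7.08 and 3.52 in those labelled Zhx1-KO, and Myf6 was at 0 in all 46C-Ctrl libraries and under 2 in the others. The part of smooth or skeletal muscle cells in the sarcomere values was not tested.

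Markers of other cell types that such cultures can hold moved too, and their part in the sarcomere values was not tested. Of 10 endothelial markers, 8 were higher and 1 was lower, with sums from 1405 to 1543 in 46C-Ctrl and from 5193 to 5606 in those labelled Zhx1-KO, among them Cdh5, Kdr, Sox18 and Tie1. Emcn (0.677 ± 0.587 and 98.4 ± 4.58) passed the filter only through the libraries labelled Zhx1-KO, so its place among those higher was set in part by the filter. Of 9 tested neural markers, 6 were higher and 1 was lower, with sums from 3243 to 3788 and from 3349 to 3497, Sox1 and Tubb3 being higher, Nes being lower and Pax6 listed at 0 in every 46C-Ctrl library. Of 10 endoderm markers, 0 were higher and 9 were lower, with sums from 40855 to 45994 and from 16416 to 17814, among them Krt8, Apob, Ttr and Foxa1. Krt8 (24023 ± 1393 and 7222 ± 497) and Krt18 (12691 ± 1122 and 6531 ± 269) made up most of these sums, and Foxa2 did not pass (717 ± 41.9 and 660 ± 24.7). Afp and Apoa1 passed the filter only through 46C-Ctrl, so their places among those lower were set in part by the filter. Of 5 tested blood markers, 2 were higher, Tal1 and Itga2b, and 3 were lower, Runx1, Hbb-bh1 and Hba-x, with sums from 710 to 843 and from 398 to 422.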

How the data were processed

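PolyA RNA of 6 libraries was prepared with a TruSeq kit. Per the methods and the submitters' processing notes, the authors trimmed reads with cutadapt 1.18, aligned them to GRCm38 with HISAT2 2.1.0 and used StringTie 1.3.4d. The authors' notes list DESeq2 and Cufflinks as well. Deposited here is a signal per gene, that is gene counts divided by 1 size factor per library. All values were whole multiples of a step (0.880 to 1.05 per library, within 0.01 of a step). No source used here gives the counting program. Each library has its own column.

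Genes with a mean of at least 10 were compared between groups with limma 3.58.1 (R 4.3.3), with its trend option and no covariate, on log2(value + 1). P-values were adjusted by Benjamini-Hochberg over the 15372 genes, and calls made at an adjusted p under 0.05. The added 1 lowers the fold changes of low genes, but a zero in a library can take them above the ratio of means. Tnnt3 was fitted at 6.66-fold lower and was 3.70-fold lower by its means. No count test was run, since these are not raw counts. Exon lengths and positions came from GENCODE M21 on GRCm38. The fit was tested on simulated data with far fewer changed genes than were called here and a single common spread. That checks the code and not the calls made here.

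Genes named by rule are the 39 members, Zhx1, up to 4 tested genes per list with the smallest adjusted p, and genes of a member's family set beside it. Named beyond it, after their values were seen, are the progenitor markers, and Nppa, Nppb, Smtn, Myl9, Myh11, Myod1, Myf6 and Itga2b from the lists. So are Hopx, Mef2a, Irx4, Mef2d, Emcn, Hes5, Krt18, Foxa2, Afp and Apoa1 from the lists, and Dnaaf3, Tstd2, Hspb2 and Myl12a, which overlap members. Tpm2, Myocd and Sox17 each stand in 2 lists. Some genes of the lists are not reported here by name. The members and lists were chosen with earlier results of these data known.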

Additional observations from a re-analysis of the deposited data

How the results depend on the processing

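The count of sarcomere genes higher ran from 8 to 11 and that of genes lower from 11 to 14 over the alternatives (pseudocount 5, no filter, a mean of at least 50, quantile normalization, trimmed mean rescaling, limma without trend, the replicate block, the chromosome median taken off and each library left out). The 8 came with a mean of at least 50, where 25 of the sarcomere genes were tested, against 30 in the main fit and 38 with no filter. Myl2, Tnni3 and Tnnt1, higher in the main fit, were not tested in that setting. Leaving out 1 library gave 9 to 10 higher and 11 to 14 lower. With the replicate number as a block, 10 were higher and 12 were lower. Deviations of same-numbered libraries correlated at 0.00419, -0.0690 and 0.000587, so the libraries share only a number.

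Log2 fold changes of single genes kept direction and side of the threshold in 390 of their values under alternatives, lost the call in 14, gained it in 7 and turned sign in 4. The sign turned for Myl4 with the chromosome median taken off (-0.00725) and for Smyd1, which did not pass in any of them, with the chromosome median taken off (0.113), without 46C-Ctrl replicate 2 (0.0402) and without Zhx1-KO replicate 2 (0.115), with a range of -0.148 to 0.115 over the libraries left out. Calls were lost for Myom1 in limma without trend (adjusted p = 0.0532) and for Tnnt1 under quantile normalization (0.0753) and without trend (0.0692), and gained for Tnnt3 with pseudocount 5 (0.0300) and for Nebl (0.0346) and Csrp3 (0.0437) under quantile normalization. The difference in the log2 ratio of Myl7 to Myl2 was -0.32 and became 0.0601 with pseudocount 5. The cause was not tested. Genes under a mean of 10 were not tested, and 3 libraries against 3 cannot take an exact permutation test below p = 0.1.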
